A study of Mus musculus with 6 samples.

Results

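Hepcidin and the genes of hepatic iron regulation were examined as a set of 10 genes, chosen by name from the 25718 genes of the deposited expression table: the hepcidin genes Hamp and Hamp2, the ligand gene Bmp6, the iron sensor genes Hfe and Tfr2, the transferrin receptor and transferrin genes Tfrc and Trf, the iron exporter gene Slc40a1, and the ferritin genes Fth1 and Ftl1. All 10 passed the filter on low counts and were tested. Hepatocytes were taken from WT and S100a16KO+/- male mice, 8 to 10 weeks old on a C57BL/6 background and all fed alcohol, and their RNA was sequenced in 3 libraries of each genotype. Per the sample labels the S100a16KO+/- group is a knockdown of S100A16, whereas the study describes heterozygous mice in which exons 2 to 3 of S100a16, flanked by loxP sites, were removed by EIIa-Cre. That promoter drives Cre in the early embryo, so the deletion was not limited to hepatocytes. Mice of both genotypes received control liquid diet for 5 days, then diet with 5% ethanol for 10 days and a single gavage of ethanol at 5 g/kg, and cells were collected 9 h later, so every value below is from an alcohol-fed mouse. Hepatocytes were separated by collagenase perfusion and a Percoll step, and the sources used here do not say whether each library came from 1 mouse. P values therefore measure the spread between these libraries.

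Hepcidin is a peptide hormone made mainly by hepatocytes. It binds ferroportin, the only known cellular iron exporter, which is encoded by Slc40a1, and causes its removal from the cell surface, so that less iron enters the plasma from the gut, macrophages and liver. Transcription of Hamp is raised by BMP ligands, which reach hepatocytes largely from the sinusoidal endothelium and act through the co-receptor hemojuvelin and SMAD proteins, and by IL-6 through STAT3. Inside cells, iron regulatory proteins bind hairpins called iron-responsive elements in mRNA, where they block translation of ferritin and ferroportin mRNA and protect the transferrin receptor mRNA from decay. Mice carry a pair of hepcidin genes, and the product of Hamp, not that of Hamp2, is the form known to regulate iron.

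The promoters of the hepcidin genes are shown because these neighbouring genes differed in their change between genotypes. Hamp (ENSMUSG00000050440) lies on chromosome 7 from 30942368 to 30944032 and Hamp2 (ENSMUSG00000056978) from 30922372 to 30924181, both on the minus strand of GRCm38 (mm10). The sequences are RefSeq's for GRCm38.p6, 120 bases from -130 to -11 relative to the transcription start, at chr7:30944040-30944159 for Hamp and chr7:30924192-30924311 for Hamp2. Capitals mark the BMP response element in Hamp, or the stretch aligned to it in Hamp2, and then the STAT site.
Hamp: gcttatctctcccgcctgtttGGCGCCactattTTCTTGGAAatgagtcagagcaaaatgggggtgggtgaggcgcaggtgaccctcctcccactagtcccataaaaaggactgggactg
Hamp2: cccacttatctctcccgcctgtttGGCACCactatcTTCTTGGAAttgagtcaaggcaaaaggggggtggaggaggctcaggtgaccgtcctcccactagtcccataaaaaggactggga

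The BMP response element GGCGCC lay from -109 to -104 in Hamp. The stretch aligned to it in Hamp2, from -106 to -101, differed by 1 substitution, G4A, counted from 1 at the 5′ end of the element. The STAT site, searched as TTCNNNGAA, was identical in both promoters, from -97 to -89 in Hamp and from -94 to -86 in Hamp2. Over the 300 bases of each promoter entry, 250 before and 50 after the start, the 2 sequences were identical in 276 of 303 aligned columns (91.1%), with 21 mismatches and 6 gap columns. Both motifs read the same on either strand and do not overlap each other. GGCGCC was present in 11.9% of all 32851 mouse promoters of this length, TTCNNNGAA in 8.3% and both in 0.645%. Of the 10 genes, 8 had a promoter entry (those without are Slc40a1 and Trf), and Tfrc was the other one with GGCGCC, at -89. A match describes these letters only and was not tested for binding.

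The iron-responsive elements are shown because they mark the transcripts in the set on which iron regulatory proteins are known to act. They were found in GENCODE M21 transcripts on GRCm38 as a C, 5 bases, the loop CAGTG followed by A, C or T, and 5 bases that pair with the first 5, with G-U pairs allowed. The loop is in capitals in each 27-base site.
Fth1, 5′ UTR, chr19:9982733-9982759, plus strand: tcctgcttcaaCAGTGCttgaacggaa
Ftl1, 5′ UTR, chr7:45459780-45459806, minus strand: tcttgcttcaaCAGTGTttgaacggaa
Slc40a1, 5′ UTR, chr1:45925466-45925492, minus strand: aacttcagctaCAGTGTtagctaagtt
Tfrc, 3′ UTR, chr16:32631220-32631246, plus strand: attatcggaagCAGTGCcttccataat
Tfrc, 3′ UTR, chr16:32631711-32631737, plus strand: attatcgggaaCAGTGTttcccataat

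Fth1, Ftl1 and Slc40a1 each held 1 such site in the 5′ UTR, and Tfrc held 4 in the 3′ UTR, of which 2 are printed. Of the 20217 mouse genes with a 5′ UTR, 22 (0.109%) held a site there. Of the 20901 with a 3′ UTR, 100 (0.478%) held a site, and Tfrc was the only one with at least 4.

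Library totals lay between 67658095 and 71807834 estimated counts, at about 4 counts to a sequenced fragment, so that a count of 0 allows up to 12 counts (0.167 to 0.177 CPM). The targeted gene S100a16 had 1001, 1056 and 1107 counts in WT and 433, 390 and 366 in S100a16KO+/- libraries, a log2 fold change of -1.40 (SE 0.11, adjusted p = 4.14e-07, edgeR). The hepatocyte marker Alb was at a mean of 88524 and 85458 CPM. Marker genes of endothelial, stellate and red cells moved with genotype and are given beside the results they touch. WT replicate 1 and S100a16KO+/- replicate 2 stood apart from the other libraries on the second principal component (12.8% of the variance), and without both of them Hamp2, Smad5, Smad7, Stat3 and Jak1 lost the calls given below (adjusted p = 0.147, 0.0637, 0.0969, 0.198 and 0.056, edgeR).

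Of the 10 genes, 3 were higher in S100a16KO+/- hepatocytes (Hamp, Hamp2 and Bmp6), 4 were lower (Tfrc, Trf, Slc40a1 and Ftl1) and 3 did not pass the test (Hfe, Tfr2 and Fth1). The test was edgeR's quasi-likelihood test on the estimated counts, two-sided, at a Benjamini-Hochberg adjusted p under 0.05 over all 15957 tested genes. Over all tested genes 22.8% passed, 11.6% higher and 11.2% lower. The genotypes did not overlap for 8 of the 10 genes, against 37.9% of all tested genes. Because the 10 genes were chosen with earlier results of these data known, these shares are not a test of the set. The median log2 fold change was -0.01 over the 10 genes and 0.01 over all tested genes. Hamp, Bmp6 and Slc40a1 passed under all 15 alternative settings tried, and the other 4 calls did not. The number of genes that passed fell to 3 without WT replicate 3, and to 4 without WT replicate 2 or without S100a16KO+/- replicate 1.

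**Figure D1:**
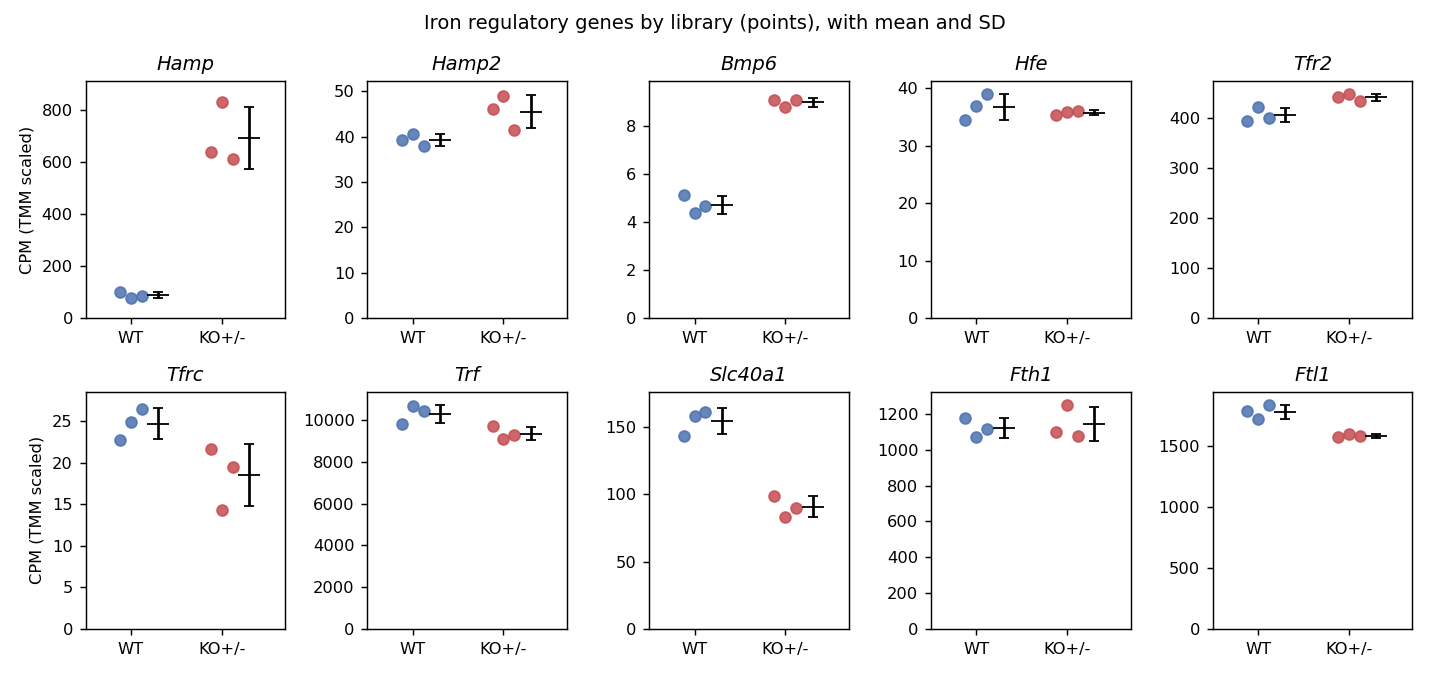
TMM-scaled CPM (y axis, starting at 0) of the 10 iron regulatory genes in the 3 WT and 3 S100a16KO+/- (KO+/-) libraries, 1 point per library, with the mean and SD in black. The S100a16KO+/- points of Hamp lie between 614.5 and 832.1 CPM, all above the WT points, those of Bmp6 are also all above, those of Slc40a1 all below, and the points of Hfe and Fth1 overlap.

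Hamp had the largest change of the set. Its level was 102.3, 79.6 and 85.8 CPM (counts relative to the library total, scaled by TMM) in the WT libraries and 639.2, 832.1 and 614.5 CPM in the S100a16KO+/- libraries. Every S100a16KO+/- library was at least 6 times as high as the highest WT library, and S100a16KO+/- replicate 2 was the highest. The mean rose from 89.2 ± 11.7 to 695.3 ± 119.2 CPM (SD, n = 3 each), 7.79-fold. The log2 fold change was 2.96 (SE 0.17, adjusted p = 1.54e-04, edgeR), and it lay between 2.81 and 3.07 under the alternatives. Of the 6550 tested genes whose mean reached 10 CPM, it was the fifth largest rise. Hamp was already abundant in WT cells, at ranks 178, 218 and 210 of all genes by FPKM (fragments relative to transcript length and to the library total), and stood at ranks 47, 43 and 47 in S100a16KO+/- cells.

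Hamp2, the neighbouring copy, changed far less. It was at 39.2, 40.7 and 37.9 CPM in WT and 46.1, 48.9 and 41.5 CPM in S100a16KO+/- libraries. The genotypes did not overlap, but the lowest S100a16KO+/- library was less than 1 CPM above the highest WT library. Its log2 fold change of 0.21 (SE 0.07, adjusted p = 0.0333, edgeR) lost the call without any 1 of the WT replicates or of S100a16KO+/- replicates 1 and 2, with values of 0.16 to 0.24 and adjusted p of 0.0626 to 0.141. It also lost it without WT replicate 1 and S100a16KO+/- replicate 2 together (0.15, adjusted p = 0.147). The FPKM of Hamp was 3.72, 2.79 and 3.22 times that of Hamp2 in WT and 19.8, 24.2 and 21.0 times in S100a16KO+/- libraries. This within-library ratio, which was added after the values were seen, rose by 2.75 on the log2 scale (exact permutation p = 0.1, the smallest that 3 against 3 allows). Of the 31-base words in Hamp transcripts, 33.7% also occur in those of Hamp2, and 23.1% the other way, so reads could be assigned to the wrong copy.

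The genes around Hamp had smaller changes. Usf2 next to it, a transcription factor gene, had a log2 fold change of 0.09 (SE 0.08, adjusted p = 0.495), and Lsr, a lipoprotein receptor gene, had -0.00 (SE 0.07, adjusted p = 0.999, edgeR). Gm4673, an annotated gene of no known role here, was higher by 0.57 (SE 0.12, adjusted p = 0.00348, edgeR). The antisense gene Gm44662, which overlaps both hepcidin genes, held at most 13 counts in any library.

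The 5 genes whose log2(CPM + 1) profile over the 6 libraries was most like that of Hamp, among the 6549 others whose mean reached 10 CPM, were Manf, Derl3, Hyou1, Fst and Hspa5. Their root mean square differences from the mean-centred Hamp profile were 0.16, 0.22, 0.28, 0.30 and 0.33. Manf, Derl3, Hyou1 and Hspa5 encode proteins of the endoplasmic reticulum, and Fst encodes follistatin, a secreted protein that binds activins. The likeness rests mostly on the genotype difference that these genes share with Hamp.

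**Figure D2:**
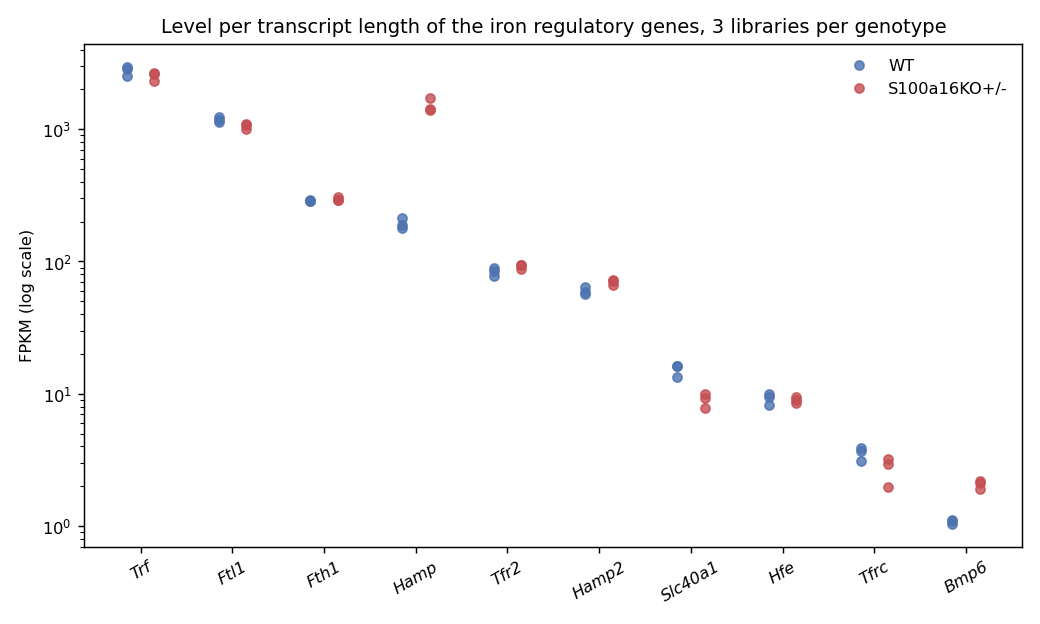
FPKM (log scale) of the 10 genes in each WT and S100a16KO+/- library, ordered by the WT mean. Hamp moves from below both ferritin genes in WT to above them in S100a16KO+/- libraries, with Trf the one gene of the 10 above it there.

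On the FPKM scale, which allows levels of different genes to be compared per transcript length, Trf led the WT hepatocytes at 2772 ± 236 (SD, n = 3). Ftl1 (1185 ± 56.2), Fth1 (288.3 ± 3.87), Hamp (193.6 ± 16.5), Tfr2 (83.8 ± 6.26) and Hamp2 (60.1 ± 3.79) followed. Slc40a1 (15.3 ± 1.58), Hfe (9.22 ± 0.906), Tfrc (3.57 ± 0.403) and Bmp6 (1.08 ± 0.0375) were the lowest. No neighbours in this WT order overlapped between libraries. In S100a16KO+/- hepatocytes Hamp, at 1514 ± 179 FPKM, stood between Trf (2530 ± 189) and Ftl1 (1059 ± 44.7). There, Slc40a1 (9.04 ± 1.12) and Hfe (8.99 ± 0.457) overlapped, as did Tfrc (2.70 ± 0.653) and Bmp6 (2.07 ± 0.143). FPKM of transcripts as short as those of Hamp depend on how the effective length was set.

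Bmp6, the ligand gene in the set, was at a low level and higher in S100a16KO+/- hepatocytes. It was at 5.13, 4.39 and 4.66 CPM in WT and 9.09, 8.79 and 9.11 CPM in S100a16KO+/- libraries. The libraries of each genotype lay close together and the genotypes did not overlap. The log2 fold change was 0.93 (SE 0.12, adjusted p = 5.61e-05, edgeR), and it was at least 0.56 under every alternative. Bmp2, which encodes the other main BMP ligand of the liver, was at 18.8, 20.5 and 23.3 CPM in WT and 29.2, 33.8 and 30.9 CPM in S100a16KO+/- libraries, again with no overlap. Its log2 fold change was 0.58 (SE 0.09, adjusted p = 2.18e-04, edgeR). The 3′ end of Bmp6 overlaps Txndc5 on the opposite strand, which was also higher (log2 fold change 0.54, adjusted p = 3.24e-06, edgeR), and how the counting used strand is not given in the sources used here.

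Both ligands are made largely by endothelial cells in liver, and endothelial markers moved with genotype in these hepatocyte preparations. Over all tested genes 11.6% were higher and 11.2% lower by the edgeR test. Of 10 endothelial markers, 9 were higher in S100a16KO+/- libraries, by 0.39 to 0.73 on the log2 scale, and Lyve1 was lower (-0.42, adjusted p = 0.0071, edgeR). Their summed level was 293.3 to 308.6 CPM in WT and 434.9 to 457.0 CPM in S100a16KO+/- libraries, and none was at 0. Relative to that sum, Bmp6 was still higher in every S100a16KO+/- library, with a log2 difference of 0.39 (exact permutation p = 0.1). Bmp2 was not separated from the sum (log2 difference 0.04, exact permutation p = 0.8), and the sign of this difference turned without WT replicate 1 (-0.05). Both ratios were added after the values were seen, and the part of endothelial RNA in the change of the ligands was not tested further. In bulk RNA of this kind, fewer cells of a type and less RNA per cell cannot be told apart.

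The iron sensors of the hepatocyte did not pass the test. Hfe, which encodes the protein changed in classical haemochromatosis, was at 34.5, 36.9 and 39.0 CPM in WT and 35.4, 35.9 and 36.1 CPM in S100a16KO+/- libraries. All of the latter lay within the WT range, and the log2 fold change was -0.04 (SE 0.06, adjusted p = 0.711, edgeR). Tfr2, the transferrin-binding sensor expressed by hepatocytes, was at 395.6, 422.4 and 401.3 CPM in WT and 442.7, 449.0 and 435.1 CPM in S100a16KO+/- libraries. Its genotypes did not overlap, but the log2 fold change of 0.12 (SE 0.05, adjusted p = 0.0825, edgeR) missed the threshold. DESeq2 came nearest to it, with an adjusted p of 0.0572.

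Among 13 tested components of BMP and SMAD signalling, 1 was higher (Bmp2), 5 were lower and 7 did not pass. The median log2 fold change was 0.01, the same as over all tested genes, of which 22.8% passed. Hjv, the hemojuvelin co-receptor gene on which the response of Hamp to BMP depends, was at 74.7, 73.0 and 71.2 CPM in WT and 48.7, 52.0 and 52.9 CPM in S100a16KO+/- libraries. It was thus lower in all S100a16KO+/- libraries while Hamp was higher (log2 fold change -0.51, SE 0.06, adjusted p = 1.35e-05, edgeR). The type I receptor genes Bmpr1a (-0.42) and Acvr1 (-0.36), the type II receptor gene Acvr2a (-0.30) and the signal transducer gene Smad5 (-0.41) were lower as well, on the log2 scale. Bmpr1a passed under every alternative. Without WT replicate 2 none of Acvr1, Acvr2a and Smad5 passed (adjusted p = 0.147, 0.0703 and 0.0783, edgeR), which left 3 components called. Acvr1 also lost the call without WT replicate 3 or S100a16KO+/- replicate 1 or 3 (adjusted p of up to 0.119), and Acvr2a without any 1 library other than WT replicate 1 (up to 0.172). Tmprss6, whose protease product cleaves hemojuvelin, was at 267.6, 291.6 and 276.6 CPM in WT and 296.5, 295.7 and 281.7 CPM in S100a16KO+/- libraries, with overlap (log2 fold change 0.06, adjusted p = 0.431, edgeR). Erfe, the gene of the erythroid hormone that restrains hepcidin, was at no more than 0.0710 CPM in any library, under the limit that a count of 0 allows.

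**Figure D3:**
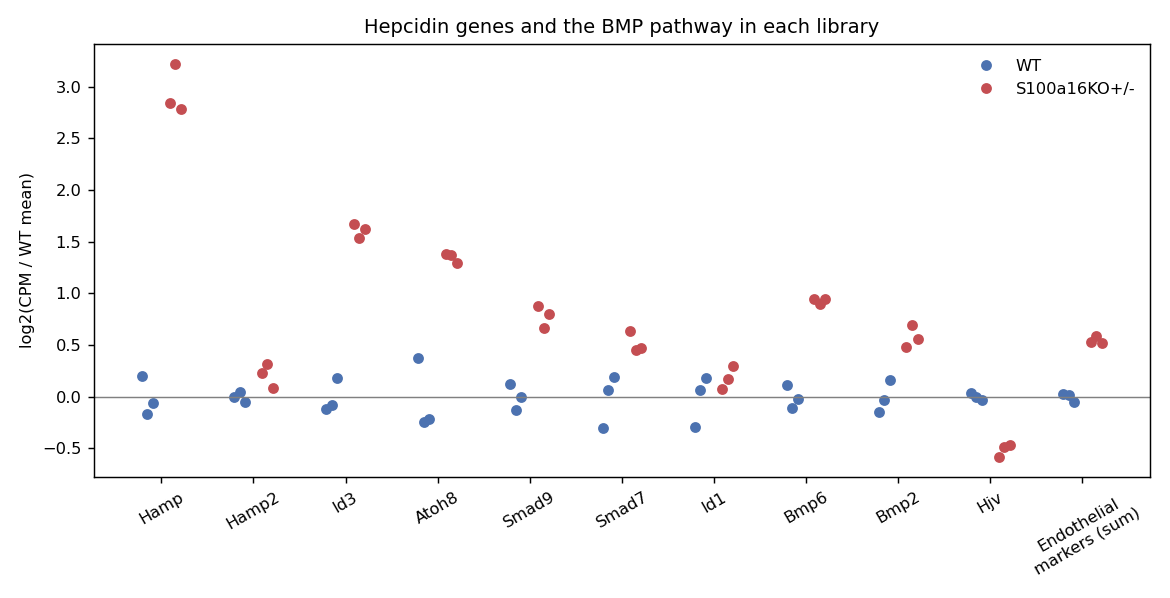
log2 of CPM over the WT mean for the hepcidin genes, BMP target genes, BMP ligand genes, Hjv and the summed endothelial markers, 1 point per library and 3 per genotype. Hamp, Id3 and Atoh8 stand highest in the S100a16KO+/- libraries, Hamp2 and Id1 stay near the WT mean, and Hjv lies below it.

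Genes known to be induced by BMP signalling rose in part. Of 9, 4 were higher, 0 were lower and 5 did not pass, with a median log2 fold change of 0.37. By the same test 22.8% of all tested genes passed, 11.6% higher and 11.2% lower. Endothelial markers (9 of 10 higher, given above) and stellate cell markers (5 of 8 higher, 0 lower, with a sum of 58.3 to 63.6 CPM in WT and 96.0 to 112.2 CPM in S100a16KO+/- libraries) moved in the same direction, and their part in the changes of these targets was not tested. Id3, a target encoding a transcriptional inhibitor, was at 9.61, 9.85 and 11.8 CPM in WT and 33.1, 30.2 and 32.1 CPM in S100a16KO+/- libraries. Each S100a16KO+/- library was well above each WT library (log2 fold change 1.61, SE 0.09, adjusted p = 1.52e-08, edgeR). Atoh8, which encodes a transcription factor of the hepcidin pathway, was at 7.92, 5.19 and 5.26 CPM in WT and 15.9, 15.8 and 15.0 CPM in S100a16KO+/- libraries (log2 fold change 1.35, SE 0.15, adjusted p = 1.47e-05, edgeR). Smad9 was higher by 0.78 (SE 0.12, adjusted p = 1.71e-04, edgeR).

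Smad7, the inhibitory SMAD gene, was higher by 0.52 (SE 0.16, adjusted p = 0.0272, edgeR) on 3.25 to 6.26 CPM. That call was lost without WT replicate 1 or 2 or S100a16KO+/- replicate 1 or 3, with values of 0.39 to 0.56 and adjusted p of 0.0591 to 0.103. Id1, a target that usually moves with Hamp in the liver, was at 3.60, 4.62 and 5.00 CPM in WT and 4.63, 4.98 and 5.42 CPM in S100a16KO+/- libraries. The genotypes overlapped, and its log2 fold change was 0.19 (SE 0.16, adjusted p = 0.465, edgeR). Id2, Id4, Smad6 and Bambi had values of 0.10, -0.15, -0.21 and 0.37 on the log2 scale and did not pass.

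Of the 10 tested genes of the IL-6, STAT3 and stress arm of hepcidin control, 6 were higher, 2 were lower and 2 did not pass. Their median log2 fold change was 0.18, and 22.8% of all tested genes passed. Socs3, a target and feedback inhibitor of STAT3, was at 7.59, 6.24 and 6.01 CPM in WT and 17.0, 17.5 and 19.1 CPM in S100a16KO+/- libraries. The genotypes were far apart (log2 fold change 1.43, SE 0.11, adjusted p = 3.03e-07, edgeR). Il6st, which encodes the gp130 receptor chain, was higher by 0.56 (SE 0.05, adjusted p = 2.85e-06, edgeR), and Ddit3, the gene of the stress factor CHOP, by 0.60 (SE 0.09, adjusted p = 1.96e-04, edgeR). Il6 itself was at most at 0.419 CPM in S100a16KO+/- replicate 1 and under the limit in the other libraries, and it was not tested. Socs3 was also the gene of this list whose promoter held both GGCGCC and TTCNNNGAA.

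The rises in Stat3 (0.22, adjusted p = 0.0392), Atf6 (0.21, adjusted p = 0.0149) and Jak1 (0.15, adjusted p = 0.0482, edgeR) were small. Leaving out each library gave values of 0.16 to 0.29, 0.17 to 0.24 and 0.13 to 0.17, in that order. Stat3 lost the call without any 1 of 5 libraries, all but WT replicate 2 (adjusted p of up to 0.185), Jak1 without any 1 of the 6 (up to 0.166), and Atf6 without WT replicate 2 or S100a16KO+/- replicate 1 (up to 0.0869). Without S100a16KO+/- replicate 1, 5 genes of the list passed in place of 8. The 2 genes that were lower encode transcription factors that bind the Hamp promoter. Cebpa, the gene of the hepatocyte factor C/EBP alpha, was at 195.3, 194.0 and 192.7 CPM in WT and 117.8, 120.9 and 119.7 CPM in S100a16KO+/- libraries (log2 fold change -0.70, SE 0.05, adjusted p = 1.13e-07, edgeR). Creb3l3, the gene of CREB-H of the endoplasmic reticulum, was at 292.0, 304.9 and 288.5 CPM and at 247.0, 252.4 and 242.6 CPM (log2 fold change -0.25, SE 0.05, adjusted p = 0.0015, edgeR). Neither gene overlapped between genotypes, and the part of these factors in the change of Hamp was not tested.

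Slc40a1, which encodes ferroportin, the receptor of hepcidin, fell. It was at 143.1, 158.2 and 160.9 CPM in WT and 98.5, 83.0 and 90.1 CPM in S100a16KO+/- libraries. The highest S100a16KO+/- library was well below the lowest WT library, and the mean fell from 154.1 ± 9.56 to 90.5 ± 7.78 CPM (SD, n = 3 each), 58.8% of WT. The log2 fold change was -0.77 (SE 0.07, adjusted p = 1.63e-06, edgeR), between -0.83 and -0.70 under the alternatives. Kupffer cells, the liver macrophages, also express this gene. Of 12 Kupffer markers, 3 were higher (Marco, Cd68 and C1qb) and 9 did not pass, while 22.8% of all tested genes passed. The sum of the 12 markers was 160.9 to 189.7 CPM in WT and 188.7 to 205.2 CPM in S100a16KO+/- libraries. The part of Kupffer RNA in the change of Slc40a1 was not tested.

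Tfrc, the gene of transferrin receptor 1 for iron uptake, was lower with a wide spread. It was at 22.8, 24.9 and 26.5 CPM in WT and 21.7, 14.4 and 19.5 CPM in S100a16KO+/- libraries. The genotypes did not overlap, but S100a16KO+/- replicate 1 lay just under the lowest WT library and S100a16KO+/- replicate 2 far below the rest. The log2 fold change was -0.42 (SE 0.13, adjusted p = 0.0413, edgeR). The call was lost without any 1 of the WT replicates or without S100a16KO+/- replicate 3 (-0.47 to -0.36, adjusted p of 0.0501 to 0.133), and without S100a16KO+/- replicate 2 the value was -0.26. Red cell precursors express Tfrc strongly. Of 7 tested erythroid markers 5 were lower, against 11.2% of all tested genes. Their log2 fold changes were -3.57 to -3.43 for the 4 globin genes and -0.70 for Alas2. The other 2, the erythroid transcription factor gene Klf1 (0.18, adjusted p = 0.628) and the erythropoietin receptor gene Epor (0.28, adjusted p = 0.756, edgeR), did not pass. The sum of the 7 was 217.4 to 255.4 CPM in WT and 26.3 to 30.1 CPM in S100a16KO+/- libraries, and the part of red cell RNA in the change of Tfrc was not tested.

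Trf, the gene of the plasma iron carrier transferrin, was among the most abundant transcripts of these cells. It was at 9814, 10651 and 10414 CPM in WT and 9694, 9069 and 9283 CPM in S100a16KO+/- libraries. All WT libraries were higher, by a small margin between WT replicate 1 and S100a16KO+/- replicate 1. The log2 fold change was -0.14 (SE 0.04, adjusted p = 0.0384, edgeR). The call was lost without any 1 library other than WT replicate 1, with values of -0.17 to -0.11 and adjusted p of 0.0592 to 0.197. Of the 31-base words of Trf transcripts, 63.8% occur in transcripts of other annotated genes, mostly Gm20425.

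The ferritin genes encode the heavy and light subunits of the iron storage shell. Fth1 was at 1179, 1070 and 1116 CPM in WT and 1097, 1250 and 1078 CPM in S100a16KO+/- libraries, with overlap (log2 fold change 0.03, SE 0.06, adjusted p = 0.816, edgeR). Ftl1 was at 1785, 1717 and 1833 CPM in WT and 1570, 1596 and 1576 CPM in S100a16KO+/- libraries. All of the latter were lower, and the log2 fold change was -0.17 (SE 0.04, adjusted p = 0.0116, edgeR). That call was lost without WT replicate 3 (-0.15, adjusted p = 0.097) and without S100a16KO+/- replicate 1 (-0.17, adjusted p = 0.0573). Of the 31-base words of Ftl1, 57.7% occur in other transcripts, mostly the pseudogene Ftl1-ps1, whose log2 fold change was 0.05 (adjusted p = 0.812, edgeR), so reads could be split between them.

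Ratios within a library do not depend on scaling, and 2 were computed between transcripts with iron-responsive elements. The FPKM ratio of Fth1 to Ftl1 was 0.255, 0.241 and 0.235 in WT and 0.270, 0.302 and 0.264 in S100a16KO+/- libraries. It was higher in all of the latter, by 0.19 on the log2 scale (exact permutation p = 0.1). The ratio of Tfrc to Fth1 was 0.0108, 0.0130 and 0.0133 in WT and 0.0111, 0.00643 and 0.0101 in S100a16KO+/- libraries, which overlapped (log2 difference -0.46, exact permutation p = 0.2). The smallest p this design allows is 0.1, so neither ratio could pass at 0.05.

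The genes of the iron regulatory proteins moved little. Of 7 genes of that system, 1 was higher, 2 were lower and 4 did not pass. Their median log2 fold change was -0.00, and 22.8% of all tested genes passed. Aco1, which encodes iron regulatory protein 1, was at 158.2, 159.0 and 162.2 CPM in WT and 141.4, 135.9 and 145.9 CPM in S100a16KO+/- libraries. The genotypes did not overlap (log2 fold change -0.18, SE 0.05, adjusted p = 0.02, edgeR), and the call was lost without WT replicate 2 or 3 or without S100a16KO+/- replicate 1 (adjusted p of 0.0599 to 0.0799). Ireb2, which encodes iron regulatory protein 2, overlapped between genotypes (0.03, adjusted p = 0.783, edgeR). Pcbp2, the gene of an iron chaperone, was higher by 0.27 (adjusted p = 0.00369) and Fbxo11 was lower (-0.35, adjusted p = 0.00732, edgeR).

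Of 12 tested genes of iron transport and reduction, 3 were higher, 2 were lower and 7 did not pass. Their median log2 fold change was 0.12, and 22.8% of all tested genes passed. Lcn2, the gene of the siderophore-binding protein lipocalin 2, was at 12.1, 11.2 and 10.4 CPM in WT and 35.4, 39.9 and 32.3 CPM in S100a16KO+/- libraries. This was the largest change of the list (1.67, SE 0.09, adjusted p = 1.17e-08, edgeR), with no overlap. Slc39a14, the gene of the ZIP14 importer of iron not bound to transferrin, was at 173.4, 182.9 and 176.5 CPM and at 218.6, 212.6 and 222.4 CPM (0.29, SE 0.05, adjusted p = 5.71e-04, edgeR). Cp, the gene of the ferroxidase ceruloplasmin, was higher by 0.24 (adjusted p = 0.00234, edgeR). The metalloreductase genes Steap4 (-0.68, adjusted p = 8.00e-06) and Steap3 (-0.36, adjusted p = 0.0224, edgeR) were lower, and Steap3 lost the call without WT replicate 1 or 2 or S100a16KO+/- replicate 3 (adjusted p of 0.0802 to 0.110). Hmox1, the gene of heme oxygenase 1, overlapped between genotypes (0.05, adjusted p = 0.818, edgeR).

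Of 12 genes of mitochondrial iron handling, 1 was higher, 3 were lower and 8 did not pass. Their median log2 fold change was -0.17, and 22.8% of all tested genes passed. The mitoferrin genes, which encode paralogous importers of iron into mitochondria, moved in opposite directions. Slc25a37 (mitoferrin 1) was at 58.3, 61.9 and 57.4 CPM in WT and 30.7, 30.4 and 30.3 CPM in S100a16KO+/- libraries (-0.96, SE 0.06, adjusted p = 2.15e-08, edgeR). Slc25a28 (mitoferrin 2) was at 16.9, 14.7 and 14.4 CPM in WT and 27.8, 25.9 and 28.4 CPM in S100a16KO+/- libraries (0.84, SE 0.08, adjusted p = 5.42e-06, edgeR). The genotypes did not overlap for either gene. Mitoferrin 1 is also the importer of erythroid cells, whose globin RNA was lower in the same libraries while Klf1 and Epor did not pass, as given above, and the part of such RNA here was not tested. Glrx5, the gene of a glutaredoxin of iron-sulfur cluster assembly, was lower (-0.23, adjusted p = 0.0427, edgeR), a call lost without WT replicate 2 or 3 or S100a16KO+/- replicate 1 or 2 (adjusted p of 0.0596 to 0.198).

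**Figure D4:**
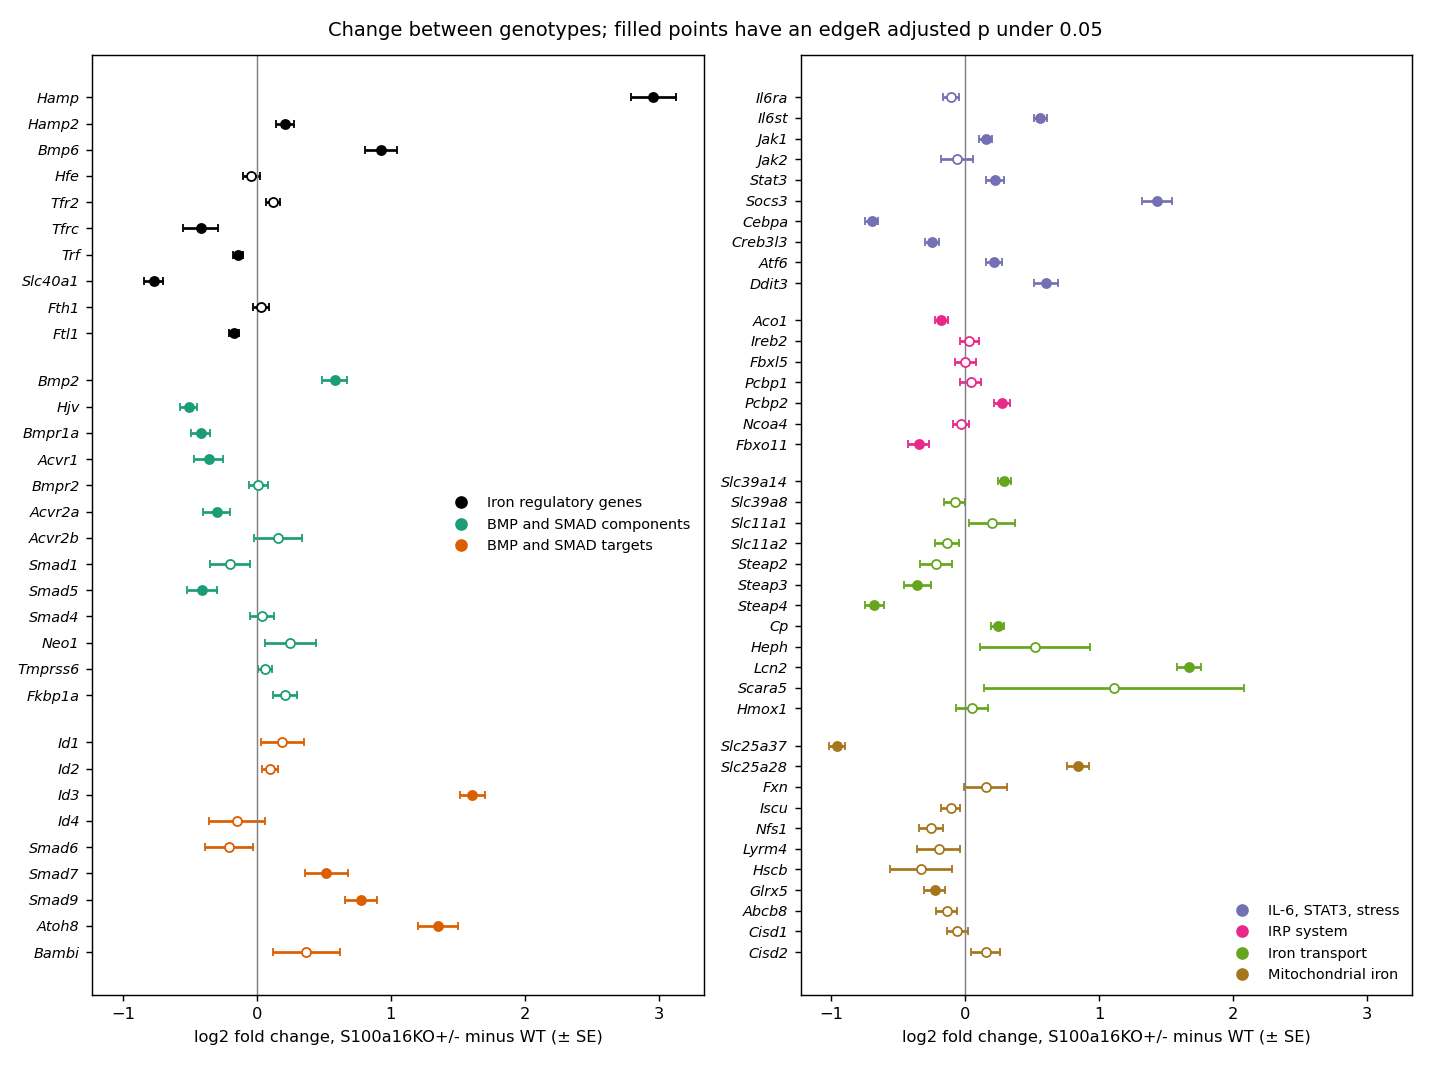
log2 fold change (S100a16KO+/- minus WT, with SE) of the 10 genes and of all but 1 of the tested genes of the 6 pathway lists, 1 color per list, filled where the edgeR adjusted p over all tested genes is under 0.05. Hamp, at 2.96, lies farthest from 0, and each list except the BMP and SMAD targets holds filled points on both sides of 0.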

How the data were processed

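Primary hepatocytes of alcohol-fed WT and S100a16KO+/- mice were sequenced, 3 libraries each, from poly(A) RNA by a stranded dUTP protocol with molecular identifiers. The submitters' processing notes name cutadapt 1.9, HISAT2 2.0.4, UMI-tools, StringTie 1.3.4d, DESeq2, edgeR and mm10. The authors deposited estimated counts (whole numbers, at about 4 counts to a sequenced fragment, not scaled by library) and FPKM per gene, and both were used as deposited.

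Estimated counts were tested with edgeR 4.0.16 in R 4.3.3 (TMM, filterByExpr, robust quasi-likelihood fit, no covariate) and adjusted by Benjamini-Hochberg over 15957 genes. The standard error was taken as the log2 fold change over the square root of F. DESeq2 1.42.0, limma 3.58.1 on log2(FPKM + 1) and log2(FPKM + 0.1), median-ratio scaling, TMM without the 20 most abundant genes, no filter, counts divided by 4, the replicate number as a block, and leaving out each library were alternatives. Within-library ratios had two-sided exact permutation tests over 20 assignments. The fit was tested on simulated data. The 10 genes and all lists were chosen with earlier results of these data known. Named were all 10 genes, S100a16, list genes that passed, Bmp2, Hjv, Tmprss6, Id1, Smad7, Creb3l3, Slc39a14, Aco1, Ireb2 and the 5 profiles most like Hamp, and other genes were chosen after their values were seen. The values of 1 mitochondrial iron gene are not reported here. Table identifiers matched GENCODE M21 for 25655 of 25718 genes, and 8 of the 10 genes had the same start and end there. The limit that a count of 0 allows covers counting error only.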

Additional observations from a re-analysis of the deposited data

How the results depend on the processing

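Over the alternatives, Hamp, Bmp6 and Slc40a1 kept their call and direction. With limma on log2(FPKM + 1) and log2(FPKM + 0.1), 2228 and 2208 genes passed in place of 3643, with 4 of the 10 genes, 3 signalling components and 5 genes of the IL-6 arm under each. The limma fits took only genes with a mean of at least 1 FPKM. These totals therefore come from another set of tested genes than 3643 and do not compare the methods alone. Under these 2 settings Tfrc was at -0.32 and -0.41, Trf at -0.13 and Ftl1 at -0.16, none of which passed. Without the filter on low counts Tfrc, at -0.42, did not pass. With counts divided by 4, which brings them near the number of fragments, 3860 genes and 7 of the 10 passed. The study's criterion of a 2-fold change and an unadjusted p under 0.05, which asks for a larger change, was applied here to the edgeR fit, and 721 genes passed. The study applied it with DESeq2, so this total is not the study's own. Among those that passed were 1 of the 10 genes (Hamp), 2 BMP targets and 1 gene each of the IL-6 arm and iron transport. They held 0 signalling components, 0 genes of the iron regulatory proteins and 0 of mitochondrial iron. By the main test those 3 lists had 6, 3 and 4 genes with an adjusted p under 0.05.

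Leaving out each library gave 3 to 5 called of the 10 genes, 3 to 6 signalling components and 5 to 6 genes of the IL-6 arm. The values were 0.16 to 0.27 for Hamp2, -0.09 to 0.00 for Hfe, -0.55 to -0.26 for Tfrc, -0.17 to -0.11 for Trf, -0.04 to 0.06 for Fth1, -0.20 to -0.15 for Ftl1, -0.02 to 0.10 for Ireb2, and -0.05 to 0.15 for Bmp2 over the endothelial markers. Without WT replicate 1 and S100a16KO+/- replicate 2 together, chosen after seeing the data, Hamp2 was at 0.15 (not passing), Fth1 at -0.01 and the Bmp2 ratio at -0.08. A sign turned only for values near 0 that did not pass.

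With the replicate number as a block, 3082 genes and 5 of the 10 passed. Trf (-0.14, adjusted p = 0.154) and Ftl1 (-0.17, adjusted p = 0.0629, edgeR) were lost, as were Acvr2a, Jak1 and Aco1 of the lists. Libraries with the same number did not deviate together (correlations of -0.05, -0.02 and 0.05). Paired samples need not deviate together, so these values cannot decide whether the numbers pair the samples, which the labels do not state.

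With 3 libraries a genotype, changes as small as those of Hamp2, Trf and Ftl1 stood near the limit of the test, and genes under about 1 CPM rest on few fragments. Protein levels, iron content and control-fed mice were not analysed here.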

Other observations

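Of the 5 stellate cell markers that were higher in S100a16KO+/- libraries, Dcn, the gene of the matrix proteoglycan decorin, changed most in CPM, by 0.96 on the log2 scale (adjusted p = 2.64e-07, edgeR). Cholangiocyte markers summed to 4.63 to 6.43 CPM in WT and 4.89 to 5.47 CPM in S100a16KO+/- libraries, and neutrophil markers to 3.26 to 5.26 and 5.30 to 6.44 CPM. Of 10 hepatocyte markers 2 were higher (Fgb and Ahsg), 2 were lower (Ttr and Cyp2e1) and 6 did not pass, while 22.8% of all tested genes passed.

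Cyp2e1, the ethanol-oxidising cytochrome, was lower (log2 fold change -0.33, adjusted p = 1.06e-04, edgeR) in the cells in which Hamp was higher. Of the hepatocyte markers that were higher, Fgb, the gene of fibrinogen beta, rose by 0.50 (adjusted p = 6.89e-06, edgeR) and Ahsg by 0.22 (adjusted p = 0.00485, edgeR).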
